A study of Mus musculus with 11 samples.

Results

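The 3 mouse genes of the growth arrest and DNA damage 45 family, *Gadd45a*, *Gadd45b* and *Gadd45g*, and *Map3k4*, the gene of their partner kinase, were followed through neural progenitor cell (NPC) cultures in which *Smg6* had been deleted. These 4 genes were chosen by name from the 53801 gene identifiers counted, and all 4 passed the filter on low counts in each comparison. RNA-seq was done on 11 libraries from the brains of 8 embryos taken at E13.5, on a C57BL/6 background mixed with 129SV. All cultures were homozygous for the floxed *Smg6* allele (Smg6 Flox/Flox), controls included. Ctr cultures (n = 3, embryos SMH_128, SMH_132 and SMH_133) carried the RosaCreER transgene (tg/+) and received no drug. Ctr + 4-OHT cultures (n = 4, embryos SMH_125, SMH_126, SMH_129 and SMH_131) lacked the transgene (RosaCreER +/+) and received 4-hydroxytamoxifen (4-OHT), the ligand that moves CreER into the nucleus. *Smg6*-iKO cultures (n = 4, embryos SMH_127, SMH_128, SMH_132 and SMH_133) carried the transgene and received 4-OHT. The labels give 1 µM of the drug for 3 days. RNA was taken at 6 days, and the sources differ on whether the drug was present throughout that time or was removed before. The Rosa26 locus drives CreER in every cell type of a culture. The Ctr and *Smg6*-iKO libraries of embryos SMH_128, SMH_132 and SMH_133 came from the same animals, and embryo SMH_127 had no Ctr library.

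The GADD45 proteins are small acidic proteins with no enzymatic activity of their own. Under stress they bind MAP3K4, a kinase at the head of the p38 and JNK cascades, and open it for activation. They also bind PCNA, the CDK1 and cyclin B1 kinase of mitotic entry and the p21 inhibitor, and they take part in DNA demethylation together with TDG and TET enzymes. *Gadd45a* is a classical target of p53 and of the integrated stress response, *Gadd45b* is induced by NF-kB and TGF-beta signalling, and *Gadd45g* marks progenitors that commit to neurons. SMG6 is the endonuclease of nonsense-mediated mRNA decay (NMD). In *Drosophila* the *Gadd45* mRNA is degraded by NMD, and removal of Gadd45 or of its MAP3 kinase partner restores viability to NMD mutants, which is the background to following these genes here.

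On GRCm38, *Gadd45a* (ENSMUSG00000036390) lies on the minus strand at chr6:67035096-67037457, *Gadd45b* (ENSMUSG00000015312) on the plus strand at chr10:80930073-80932204, *Gadd45g* (ENSMUSG00000021453) on the plus strand at chr13:51846678-51848468 and *Map3k4* (ENSMUSG00000014426) on the minus strand at chr17:12227621-12318660. The counted exons added up to 1764, 1589, 1173 and 5305 bases. No other gene overlapped their exons on the same strand. On the opposite strand, 1 gene overlapped 337 exon bases of *Gadd45a*, and reads had been counted by strand. GENCODE M21 annotates no transcript of these genes as an NMD target. In the main protein-coding transcript of each gene the last exon junction lay before the stop codon, by 114 bases in *Gadd45a* and *Gadd45b*, 111 in *Gadd45g* and 21 in *Map3k4*. A junction well behind the stop codon is the feature best known to direct a transcript to NMD. The paper also names upstream open reading frames and long 3' UTRs as features of NMD targets. The 3' UTRs of these transcripts had 563 bases in *Gadd45a*, 558 in *Gadd45b*, 489 in *Gadd45g* and 479 in *Map3k4*. Upstream open reading frames were not examined, and whether NMD acts on these transcripts was not tested.

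The promoters of the 3 *Gadd45* genes are shown to set the family's control regions side by side. Each line is the gene's own strand at positions -250 to -51 from its RefSeq start (GRCm38.p6), with capitals for matches to any of 5 words chosen after the windows had been read and searched on both strands. The words were the CAAT box (CCAAT), the octamer (ATTTGCAT), the E-box (CACGTG), the GC box (GGGCGG) and the TATA box (TATAAA). The windows are chr6:67037458-67037657 for *Gadd45a*, chr10:80929841-80930040 for *Gadd45b* and chr13:51846425-51846624 for *Gadd45g*.
Gadd45a: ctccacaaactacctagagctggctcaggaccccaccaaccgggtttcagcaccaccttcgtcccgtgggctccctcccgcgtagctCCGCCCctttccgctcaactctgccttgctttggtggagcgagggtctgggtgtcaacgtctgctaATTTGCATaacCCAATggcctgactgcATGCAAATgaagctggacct
Gadd45b: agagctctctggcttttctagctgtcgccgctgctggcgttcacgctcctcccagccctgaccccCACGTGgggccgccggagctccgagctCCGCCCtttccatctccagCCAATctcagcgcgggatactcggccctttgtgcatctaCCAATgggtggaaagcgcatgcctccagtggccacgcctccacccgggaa
Gadd45g: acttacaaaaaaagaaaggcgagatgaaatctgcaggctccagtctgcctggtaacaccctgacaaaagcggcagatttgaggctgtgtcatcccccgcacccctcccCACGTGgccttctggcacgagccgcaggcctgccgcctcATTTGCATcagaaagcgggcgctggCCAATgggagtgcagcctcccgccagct

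Each of the 3 windows held a CAAT box, *Gadd45b* 2 of them, against 28.4% of 32851 RefSeq promoter windows of this length. The octamer was rarer, in 1.32% of windows, and occurred 2 times in *Gadd45a*, on opposite strands, and 1 time in *Gadd45g*. The E-box, in 4.34% of windows, occurred 1 time each in *Gadd45b* and *Gadd45g*. The GC box, in 24.6%, occurred 1 time each in *Gadd45a* and *Gadd45b*, and the TATA box, in 9.14%, in none of the 3. In *Map3k4* the same window held 2 GC boxes and none of the other words. GENCODE M21 starts *Map3k4* at chr17:12318796, inside that window (chr17:12318711-12318910), so that part of it counts as transcribed there. The coding sequences of the 3 paralogues were 63% identical between *Gadd45a* and *Gadd45b*, 67.1% between *Gadd45a* and *Gadd45g* and 69.6% between *Gadd45b* and *Gadd45g*. Their longest exact runs in common had 13, 17 and 14 bases, shorter than 1 sequenced read.

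The libraries held between 26418249 and 33756875 counted reads. Neural progenitor markers (*Nes*, *Sox2*, *Pax6* and 5 others) were present in every library, with a summed level of 5005 to 5196 normalised counts (CPM, read counts scaled to library size) in Ctr, 4420 to 5428 in Ctr + 4-OHT and 4322 to 4892 in *Smg6*-iKO. Of these 8 markers, 5 (*Fabp7*, *Hes5*, *Pax6*, *Sox1* and *Sox2*) fell against Ctr, where 9.25% of all genes were called, and 0 passed against Ctr + 4-OHT, where 1.17% were. The 6 neuron markers summed to 1737 to 1905 CPM in Ctr, 1590 to 2577 in Ctr + 4-OHT and 2024 to 2327 in *Smg6*-iKO, and none passed. The 5 astrocyte markers summed to 1589 to 1948, 1612 to 1852 and 1316 to 1721 CPM, and *Gfap* alone passed, higher against Ctr. All 6 microglia markers stayed below 1 CPM in every library. The 5 fibroblast and meninges markers differed most between libraries, from 274 to 1513 summed CPM, and were highest in *Smg6*-iKO of embryo SMH_127 (1513) and in Ctr + 4-OHT of embryos SMH_131 (887) and SMH_125 (722). The *Smg6* count covers the whole gene and does not single out the floxed part. *Smg6* lay at 74.4 ± 4.96 CPM in Ctr, 69.3 ± 3.22 in Ctr + 4-OHT and 66 ± 4.57 in *Smg6*-iKO (SD), a difference from Ctr + 4-OHT of -0.06 on the log2 scale with an adjusted p of 0.703. Against Ctr it differed by -0.17 (adjusted p = 0.148), and in the fit blocked by embryo it fell by 0.15 (adjusted p = 0.043). *Gas5*, a non-coding RNA long known to be removed by NMD, rose by 1.27 ± 0.10 (log2, SE) against Ctr + 4-OHT (adjusted p = 0.000223) and by 1.10 ± 0.06 against Ctr (adjusted p = 1.22e-05). In bulk RNA, a changed share of a cell type and a changed level per cell cannot be told apart.

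Per kilobase of exon, *Gadd45g* was the most abundant of the *Gadd45* genes. Its mean over the libraries was 21.6 CPM per kb, above 86.8% of 18123 expressed genes and level with *Map3k4* at 21.6. *Gadd45b* followed at 7.31, above 62.1% of the genes, and *Gadd45a* at 3.74, above 47.2%. *Gadd45g* made up 65.2% of the summed *Gadd45* level in Ctr, 65.8% in Ctr + 4-OHT and 67.3% in *Smg6*-iKO, and the order of the 3 genes was the same in every group. The summed level was 33.8 ± 1.78 CPM per kb in Ctr, 27.6 ± 3.53 in Ctr + 4-OHT and 36.9 ± 1.71 in *Smg6*-iKO (SD). The lowest *Smg6*-iKO library (34.8) lay above the highest Ctr + 4-OHT library (31.7) and below the highest Ctr library (35.2).

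*Gadd45g* was the member that rose in *Smg6*-iKO against the drug-treated controls. Its level was 29.8, 26.6, 29.7 and 30.6 CPM in *Smg6*-iKO of embryos SMH_127, SMH_128, SMH_132 and SMH_133, and 20.9, 23.6, 21.6 and 18.8 CPM in Ctr + 4-OHT of embryos SMH_125, SMH_126, SMH_129 and SMH_131. Ctr lay between, at 26, 23.9 and 27.7 CPM for embryos SMH_128, SMH_132 and SMH_133. Every *Smg6*-iKO library was above every Ctr + 4-OHT library, and 3 of 4 were above every Ctr library. Against Ctr + 4-OHT the log2 fold change was 0.47 ± 0.08 (SE, 95% interval 0.29 to 0.65, adjusted p = 0.0256 in edgeR's quasi-likelihood test), and the exact permutation test gave p = 0.0286, the smallest that 4 against 4 libraries allow. *Gadd45g* was thus 1 of 4 members called in this comparison, in which 1.17% of 17558 genes were called and 10.8% of 18123 genes had groups that did not overlap. Against Ctr the difference was smaller, 0.18 ± 0.07 (interval 0.01 to 0.34), and did not pass the test (adjusted p = 0.153). It was 0.11 without Ctr of embryo SMH_132. Embryos SMH_125, SMH_127 and SMH_131 gave the libraries with the highest fibroblast and meninges markers and also the highest neuron markers. Without them the fold change against Ctr + 4-OHT was 0.37 and no longer passed (adjusted p = 0.118). It also missed the threshold when 1 library was left out in 5 of 8 cases (Ctr + 4-OHT of embryos SMH_125 or SMH_131, *Smg6*-iKO of embryos SMH_127, SMH_132 or SMH_133), with adjusted p up to 0.102.

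**Figure D1:**
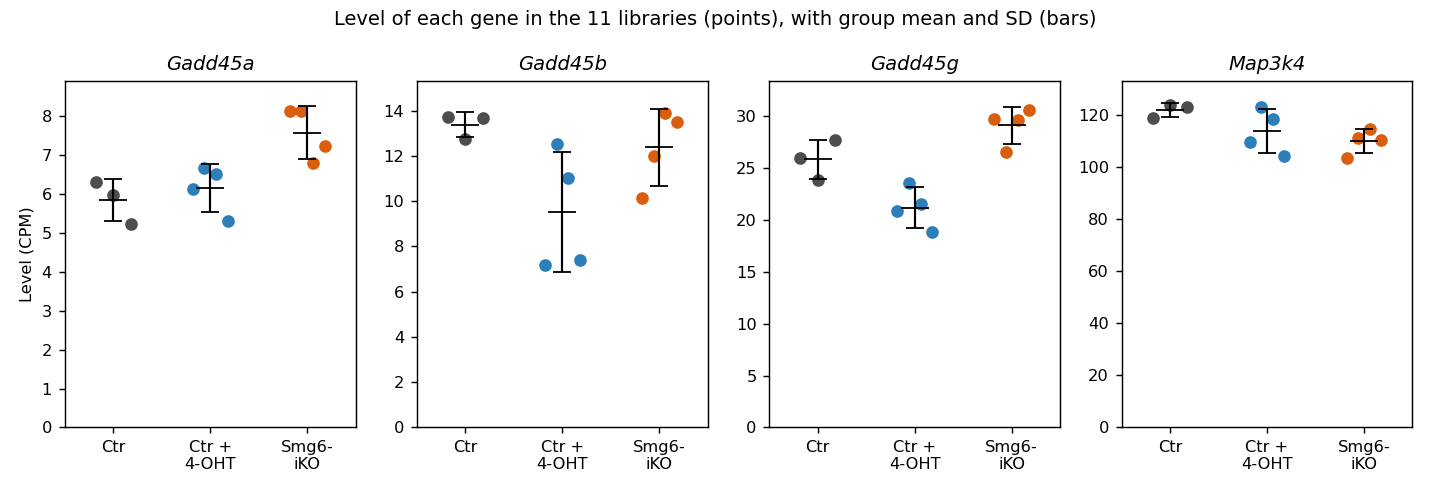
Level of the 4 genes in CPM (vertical axis of each panel, starting at 0) in the Ctr, Ctr + 4-OHT and *Smg6*-iKO libraries, 1 point per library in order of embryo number, with bars for the group mean and SD. *Gadd45a* points of *Smg6*-iKO (6.79 CPM and above) lie over all control points (6.66 CPM and below), and *Gadd45g* separates *Smg6*-iKO from Ctr + 4-OHT.

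*Gadd45a*, the p53 and stress-response member, was higher in all *Smg6*-iKO libraries than in all 7 control libraries, by a small margin. It measured 8.14, 8.14, 6.79 and 7.25 CPM in *Smg6*-iKO of embryos SMH_127, SMH_128, SMH_132 and SMH_133. Ctr + 4-OHT gave 6.14, 6.66, 6.53 and 5.3 CPM for embryos SMH_125, SMH_126, SMH_129 and SMH_131, and Ctr gave 6.31, 5.98 and 5.24 CPM for embryos SMH_128, SMH_132 and SMH_133. The 2 control groups overlapped. Of 18123 genes, 525 (2.90%) were above all controls in every *Smg6*-iKO library. *Gadd45a* was the least counted member, with 137 to 279 reads per library, and its SD in *Smg6*-iKO (8.88% of the mean) was near the counting error (6.6%). The log2 fold change was 0.31 ± 0.11 (SE, interval 0.07 to 0.55) against Ctr + 4-OHT, with an adjusted p of 0.191. Against Ctr it was 0.37 ± 0.11 (interval 0.12 to 0.63), with an adjusted p of 0.0648. The exact permutation test gave p = 0.0286 in both, the smallest possible. Neither comparison passed the edgeR threshold over all genes. Without embryos SMH_125, SMH_127 and SMH_131 the value against Ctr + 4-OHT was 0.17 (adjusted p = 0.503).

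All 3 embryos that gave both a Ctr and a *Smg6*-iKO library had the higher *Gadd45a* level in the latter. The difference within the embryo was 0.36 (log2 CPM) in embryo SMH_128, 0.18 in embryo SMH_132 and 0.46 in embryo SMH_133, against counting errors of 0.14 to 0.16. With the embryo as a block, the log2 fold change against Ctr was 0.34 ± 0.11 (SE, interval 0.12 to 0.56) and passed the test (adjusted p = 0.0292). That made *Gadd45a* 1 of 4 members called in the blocked fit, in which 21.4% of all genes were called, against 0 of 4 without the block, where 9.25% of 17974 genes were called. At an unadjusted p under 0.05, 3 of the 4 members passed edgeR's unblocked fit, as did 26.9% of all genes, and DESeq2 called 1, *Gadd45a*, and 16.9% of all genes. The block leaves embryo SMH_127 without a partner, so that its estimate rests on 3 embryos.

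**Figure D2:**
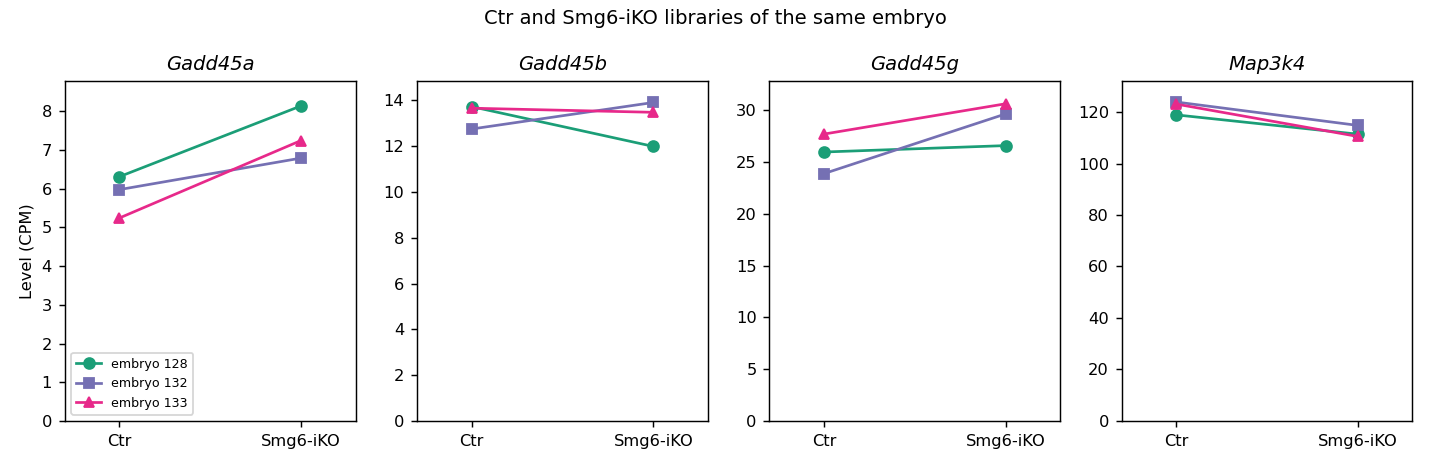
Level in CPM (vertical axes from 0) in the Ctr and *Smg6*-iKO cultures of the same embryo, joined by a line for embryos SMH_128, SMH_132 and SMH_133. *Gadd45a* and *Gadd45g* lines go up and *Map3k4* lines go down in all 3 embryos, and *Gadd45b* lines go both ways.

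Within embryos *Gadd45g* differed by 0.03, 0.31 and 0.14 on the same scale, with counting errors of 0.07 to 0.08, so that embryo SMH_128 showed no difference beyond counting error. The blocked log2 fold change of *Gadd45g* was 0.16 ± 0.07 (SE) and did not pass (adjusted p = 0.102). For *Gadd45b* the differences were -0.19, 0.12 and -0.02, of mixed sign.

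*Gadd45b*, the NF-kB and TGF-beta responsive member, did not pass the test in any comparison and varied most in the drug-treated controls. It measured 7.18 and 7.42 CPM in Ctr + 4-OHT of embryos SMH_125 and SMH_131 and 12.5 and 11 CPM in those of embryos SMH_126 and SMH_129. Ctr gave 13.7, 12.8 and 13.7 CPM for embryos SMH_128, SMH_132 and SMH_133, and *Smg6*-iKO gave 10.2, 12, 13.9 and 13.48 CPM for embryos SMH_127, SMH_128, SMH_132 and SMH_133. The SD among Ctr + 4-OHT libraries was 27.8% of the mean, against a counting error of 6.11%. The 2 low controls had the highest fibroblast and meninges markers of their group (722 and 887 summed CPM, against 356 and 308), and the lowest *Smg6*-iKO library, that of embryo SMH_127, had the highest of its group (1513, against 274 to 679). The same 2 controls also had the highest neuron markers of their group (2577 and 2403, against 1923 and 1590). Their progenitor markers were its lowest (4420 and 4540, against 4725 and 5428). *Smg6*-iKO of embryo SMH_127 likewise had the highest neuron markers (2327) and the lowest progenitor markers (4322) of its group. The part of any of these cell types in the *Gadd45b* level was not tested. The log2 fold change was 0.39 ± 0.19 (SE, interval -0.03 to 0.80, adjusted p = 0.327) against Ctr + 4-OHT and -0.11 ± 0.11 (adjusted p = 0.558) against Ctr, a value that ran from -0.17 without *Smg6*-iKO of embryo SMH_132 to -0.03 without that of embryo SMH_127. Without embryos SMH_125, SMH_127 and SMH_131 the first of these was 0.17 (adjusted p = 0.462).

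*Map3k4*, the kinase that the GADD45 proteins bind, lay slightly below Ctr in *Smg6*-iKO and did not rise against either control. Its level was 119, 124 and 123 CPM in Ctr of embryos SMH_128, SMH_132 and SMH_133, and 104, 111, 115 and 111 CPM in *Smg6*-iKO of embryos SMH_127, SMH_128, SMH_132 and SMH_133. Ctr + 4-OHT gave 110, 123, 119 and 104 CPM for embryos SMH_125, SMH_126, SMH_129 and SMH_131 and overlapped both. Every *Smg6*-iKO library was below every Ctr library, as were 11.8% of genes, within the 23.2% of genes whose groups did not overlap in either direction. The log2 fold change against Ctr was -0.15 ± 0.05 (SE, interval -0.26 to -0.03), with an adjusted p of 0.0975 in edgeR and p = 0.0286 in the exact permutation test. With the embryo block it was -0.12 ± 0.05 (adjusted p = 0.0733), and the differences within embryos were -0.09, -0.11 and -0.16 with counting errors of 0.03 to 0.04. Against Ctr + 4-OHT it was -0.04 ± 0.06 (interval -0.18 to 0.10, adjusted p = 0.803), 0.00012 without Ctr + 4-OHT of embryo SMH_126 and -0.10 without embryos SMH_125, SMH_127 and SMH_131 (adjusted p = 0.407). With 2945 reads or more in every library, *Map3k4* had the narrowest intervals of the 4 genes.

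**Figure D3:**
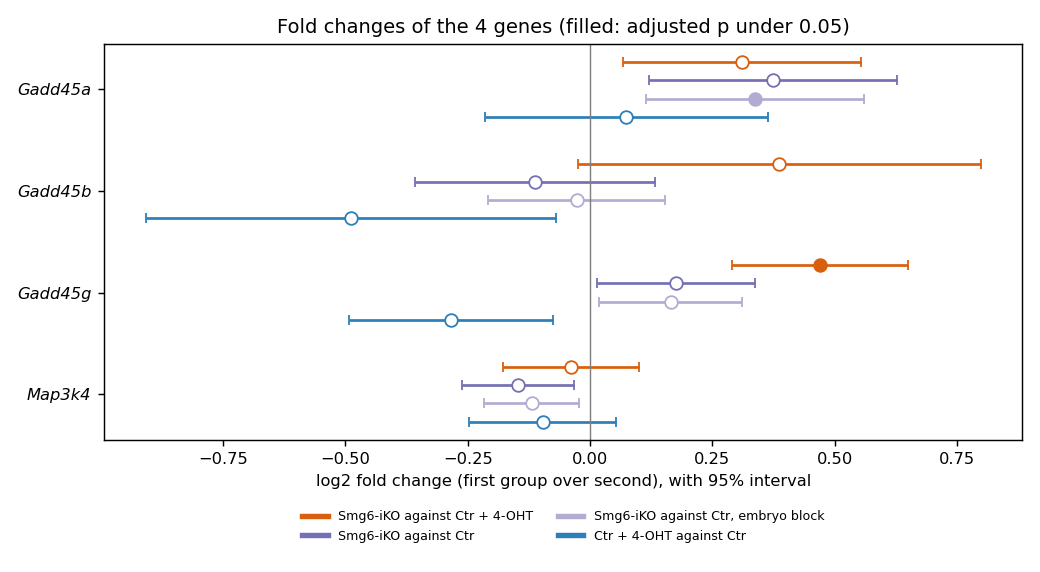
Log2 fold change (horizontal axis) with its 95% interval for the 4 genes in the 3 comparisons and in the blocked fit against Ctr, with filled points for an adjusted p under 0.05. *Gadd45g* against Ctr + 4-OHT (0.47) and *Gadd45a* in the blocked fit (0.34) are filled.

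Between the control groups, which differ in the drug, in the CreER transgene and in the embryos, none of the 4 members passed edgeR's test, where 0.221% of 17665 genes were called. At an unadjusted p under 0.05, 2 members passed, as did 8.28% of all genes, and DESeq2 called 0 members and 0.825% of all genes. *Gadd45b* differed by -0.49 ± 0.19 (log2 fold change of Ctr + 4-OHT over Ctr, SE, adjusted p = 0.526) and *Gadd45g* by -0.28 ± 0.09 (adjusted p = 0.432). Without embryos SMH_125 and SMH_131 these were -0.18 and -0.19 (adjusted p = 0.769 and 0.678). All 4 Ctr + 4-OHT libraries were below all 3 Ctr libraries for both genes, and 8.66% of genes had groups that did not overlap in this comparison. The exact permutation test gave p = 0.0857 for *Gadd45b* and p = 0.0571 for *Gadd45g*, where 0.0286 is the smallest that 4 against 3 libraries allow. *Gadd45a* differed by 0.07 ± 0.13 and *Map3k4* by -0.10 ± 0.07 (adjusted p = 0.895 and 0.731), with ranges of 0.0096 to 0.15 and -0.14 to -0.05 when 1 library was left out. Over the 7 other settings of the fit, these 2 genes ran from 0.07 to 0.18 and from -0.10 to -0.0059. The comparisons share libraries: the *Smg6*-iKO libraries stand in the first 2 and each control group in 2 of the 3.

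Over the libraries, the levels of *Gadd45b* and *Gadd45g* varied together more than those of the other *Gadd45* pairs. Pearson's r of log2 CPM over 11 libraries was 0.721 for *Gadd45b* and *Gadd45g*, 0.55 for *Gadd45a* and *Gadd45g* and 0.213 for *Gadd45a* and *Gadd45b*. With group means removed these were 0.626, 0.148 and 0.223, so that the last 2 pairs changed places, and the highest of all pairs was *Gadd45b* and *Map3k4* at 0.902. The libraries share embryos, depth and cell makeup, so these are descriptions. Among 14178 named genes, those most like *Gadd45a* were *Mgea5* (r = 0.962), the enzyme that removes O-GlcNAc from proteins, *Plxdc2* (0.952) and *Cfap54* (0.931). *Gadd45b* was most like *Lama5* (0.952), a laminin chain, *Rbm38* (0.948), an RNA-binding protein, and *Prelp* (0.945), a matrix protein. *Gadd45g* was most like *Actn2* (0.931), *Ryr2* (0.93) and *Snhg17* (0.926), and *Map3k4* was most like the ribosomal protein genes *Rpl7* (0.95), *Rpl41* (0.946) and *Rpl30* (0.944).

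Around *Map3k4*, the calls among the kinases had both signs. For the counts that follow, edgeR called 1.17% of all genes against Ctr + 4-OHT, 16.7% had an unadjusted p under 0.05 and DESeq2 called 6.06%. Against Ctr these shares were 9.25%, 26.9% and 16.9%. Of the p38 and JNK cascade below it, 0 of 13 genes passed edgeR's test against Ctr + 4-OHT (2 at an unadjusted p under 0.05, 1 by DESeq2), and 2 rose and 2 fell of 14 against Ctr. The kinases *Mapk11* (p38 beta) and *Mapk10* (JNK3) rose by 0.37 ± 0.07 and 0.29 ± 0.08 (log2, SE), and *Map2k6*, which phosphorylates p38, and *Mapkapk2*, a p38 substrate kinase, fell by 0.36 ± 0.07 and 0.29 ± 0.07 (adjusted p from 0.0124 to 0.0432). With 1 library left out these calls were lost in 2 of 7 fits for *Mapk11* and *Map2k6*, 4 for *Mapkapk2* and 6 for *Mapk10*, and all 4 were lost without *Smg6*-iKO of embryo SMH_133. The median over the cascade against Ctr was 0.01, as over all genes. Against Ctr + 4-OHT *Mapk11*, *Mapk10*, *Map2k6* and *Mapkapk2* had 0.08, 0.12, -0.24 and -0.15. Between the control groups (Ctr + 4-OHT over Ctr) they had 0.30, 0.18, -0.11 and -0.13, and none was called in either. Of 19 other MAP3 kinases, *Taok2* alone rose against Ctr + 4-OHT, by 0.28 ± 0.05 (adjusted p = 0.0371), from 118 ± 7.11 CPM to 143 ± 4.14 CPM (SD), a call lost in 7 of 8 fits with 1 library left out. Against Ctr, *Taok2* (0.32 ± 0.05) and *Map3k7*, the gene of TAK1 (0.18 ± 0.05), rose and *Map3k1* fell by 0.29 ± 0.07. With 1 library left out *Taok2* kept this call in 7 of 7 fits, and it was lost in 6 of 7 for *Map3k7* and in 3 of 7 for *Map3k1*. Against Ctr + 4-OHT *Map3k7* had 0.02 and *Map3k1* -0.18, and between the control groups (Ctr + 4-OHT over Ctr) 0.17 and -0.10, none called. The blocked fit against Ctr called 5 of the 19, 3 higher and 2 lower, and 21.4% of all genes. Of 9 phosphatases that end MAPK signals, 0 passed in either comparison (against Ctr + 4-OHT 1 at an unadjusted p under 0.05 and 0 by DESeq2, against Ctr 3 and 2). With the embryo block, where 21.4% of all genes were called, 3 of the 9 passed against Ctr, *Dusp6* higher (0.24 ± 0.06, adjusted p = 0.00837) and *Dusp10* and *Dusp16* lower (-0.22 ± 0.06 and -0.23 ± 0.05, adjusted p = 0.0111 and 0.0031). Unblocked, *Dusp5* had 0.46 ± 0.15 (adjusted p = 0.168) and *Dusp6* 0.14 ± 0.07 (adjusted p = 0.381) against Ctr + 4-OHT.

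Among the other proteins that GADD45 binds, the mitotic kinase genes were lower. *Ccnb1*, the gene of cyclin B1, fell by 0.44 ± 0.08 (log2, SE) against Ctr + 4-OHT and by 0.47 ± 0.07 against Ctr (adjusted p = 0.0369 and 0.00452). Its level was 68.7 ± 7.22 CPM in Ctr + 4-OHT, 70 ± 4.34 in Ctr and 50.5 ± 3.48 in *Smg6*-iKO (SD). *Cdk1* fell by 0.42 ± 0.08 and 0.44 ± 0.06 (adjusted p = 0.0313 and 0.00279). With 1 library left out, the call against Ctr + 4-OHT was lost in 6 of 8 fits for *Ccnb1* and in 5 of 8 for *Cdk1*, and both calls against Ctr held in 7 of 7. *Pcna*, the replication clamp (-0.31 ± 0.09, adjusted p = 0.0499), and *Tet2*, which oxidises methylcytosine (-0.27 ± 0.06, adjusted p = 0.0158), fell against Ctr, calls lost in 6 of 7 and 3 of 7 such fits. In these fits *Pcna* ran from -0.39 to -0.20. Against Ctr + 4-OHT *Pcna* had -0.26 and *Tet2* -0.05, and between the control groups (Ctr + 4-OHT over Ctr) -0.03 and -0.22, none called. In all, 2 of 11 such genes fell against Ctr + 4-OHT and 4 of 11 against Ctr, with none higher, where 1.17% and 9.25% of all genes were called. The list's median was -0.08 and -0.19, against 0.01 over all genes in either comparison. With the embryo block, where 21.4% of all genes were called, 7 of 11 passed, 6 lower and 1, *Ercc5*, an endonuclease of nucleotide excision repair, higher (0.14 ± 0.05, adjusted p = 0.0484).

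Of 13 regulators of *Gadd45* transcription, *Atf4*, the transcription factor of the integrated stress response, rose in both comparisons. It went from 300 ± 23.7 CPM in Ctr + 4-OHT and 280 ± 27.1 in Ctr to 389 ± 28.8 in *Smg6*-iKO (SD), a rise of 0.38 ± 0.07 and 0.47 ± 0.08 (log2, SE, adjusted p = 0.0407 and 0.00727). Every *Smg6*-iKO library (349 CPM and above) exceeded every control library (322 CPM and below), as was so for 2.90% of 18123 genes. The call against Ctr + 4-OHT was lost in all 8 fits with 1 library left out (adjusted p from 0.053 to 0.136), and the call against Ctr held in 7 of 7. *Brca1* (-0.30 ± 0.06) and *Smad4* (-0.19 ± 0.05) fell against Ctr, calls lost in 1 of 7 and 6 of 7 such fits. In all, 1 of the 13 regulators was called against Ctr + 4-OHT and 3 against Ctr, where 1.17% and 9.25% of all genes were. The blocked fit against Ctr called 5 of the 13, 2 higher and 3 lower, and 21.4% of all genes. Of the 4 other genes named for induction by DNA damage, *Ppp1r15a* (GADD34), which restarts translation after stress, rose by 0.25 ± 0.07 against Ctr (adjusted p = 0.0476) and *Ddit4*, an inhibitor of mTORC1, fell by 0.42 ± 0.08 (adjusted p = 0.0127). Leaving out any 1 library ended the *Ppp1r15a* call (7 of 7 fits, adjusted p from 0.0522 to 0.179), and 1 of 7 ended that of *Ddit4*. Against Ctr + 4-OHT, 0 of these 4 passed edgeR (1 at an unadjusted p under 0.05, 0 by DESeq2). The blocked fit against Ctr called 3 of the 4, 2 higher and 1 lower, and 21.4% of all genes. Of 15 immediate-early genes tested, *Junb* rose against Ctr + 4-OHT by 0.47 ± 0.09 (adjusted p = 0.0407), and *Atf3* (0.57 ± 0.14), *Klf4* (0.40 ± 0.11) and *Junb* (0.28 ± 0.07) rose against Ctr. With 1 library left out, *Junb* lost its call in 7 of 8 fits against Ctr + 4-OHT and in 6 of 7 against Ctr, and the calls against Ctr were lost in 5 of 7 for *Klf4* and 4 of 7 for *Atf3*. The list's median was 0.22 against Ctr + 4-OHT and 0.08 against Ctr, where *Egr2* had -0.54 ± 0.20 and *Egr1* -0.16 ± 0.08 (adjusted p = 0.112 and 0.232). Between the control groups (Ctr + 4-OHT over Ctr) the median was -0.03, with 9 of 15 negative, among them *Egr3* (-1.01 ± 0.25), *Egr2* (-0.87 ± 0.16) and *Egr1* (-0.49 ± 0.13), none of which passed edgeR, while DESeq2 called 2 of the list. In the blocked fit of *Smg6*-iKO against Ctr, in which 21.4% of all genes were called, *Egr2* and *Egr1* fell (adjusted p = 0.00631 and 0.0097). In that fit 4 of the 15 genes were called higher and 2 lower, and 7 fold changes were positive and 8 negative.

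The proneural and committed progenitor genes, the setting in which *Gadd45g* is best known, had mostly negative fold changes in *Smg6*-iKO. Of 14 tested against Ctr + 4-OHT, 12 had a negative log2 fold change, with a median of -0.19, but 0 passed edgeR (2 at an unadjusted p under 0.05, 0 by DESeq2). Against Ctr, 13 of 15 were negative, and the Notch ligand *Dll1* (-0.34 ± 0.09, adjusted p = 0.0471) and *Mfng*, a modifier of Notch (-0.27 ± 0.07, adjusted p = 0.0431), fell, 2 of 15 genes against 9.25% of all genes. These calls were lost in 6 of 7 and 5 of 7 fits with 1 library left out, and both with upper-quartile factors or all libraries in 1 fit. With the embryo block 6 of 15 fell and none rose, against 21.4% of all genes called. Beside this, the summed neuron markers were higher in all 4 *Smg6*-iKO libraries than in any Ctr library (2024 CPM and above, against 1905 and below). The summed progenitor markers were lower in all 4 (4892 CPM and below, against 5005 and above). Against Ctr, 23.2% of genes had groups that did not overlap. Both sums overlapped those of Ctr + 4-OHT (1590 to 2577 and 4420 to 5428 CPM), and no neuron marker passed in any comparison. The part of these cell types in the fold changes was not tested. In Ctr + 4-OHT against Ctr, 0 of the 96 tested genes of the 8 lists passed edgeR, where 0.221% of all genes did. At an unadjusted p under 0.05 it was 9 of the 96, against 8.28% of all genes, and DESeq2 called 2, against 0.825% of all genes. In an alternative added after seeing the data, without embryos SMH_125, SMH_127 and SMH_131, the 5 genes called against Ctr + 4-OHT had log2 fold changes of 0.34 (*Taok2*), -0.48 (*Ccnb1*), -0.45 (*Cdk1*), 0.28 (*Atf4*) and 0.36 (*Junb*). In that fit of 3 against 2 libraries their adjusted p ran from 0.0598 to 0.151, above the threshold. *Taok2*, *Ccnb1* and *Cdk1* had fold changes at least as large as with all 8 libraries, and *Atf4* and *Junb* smaller ones.

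**Figure D4:**
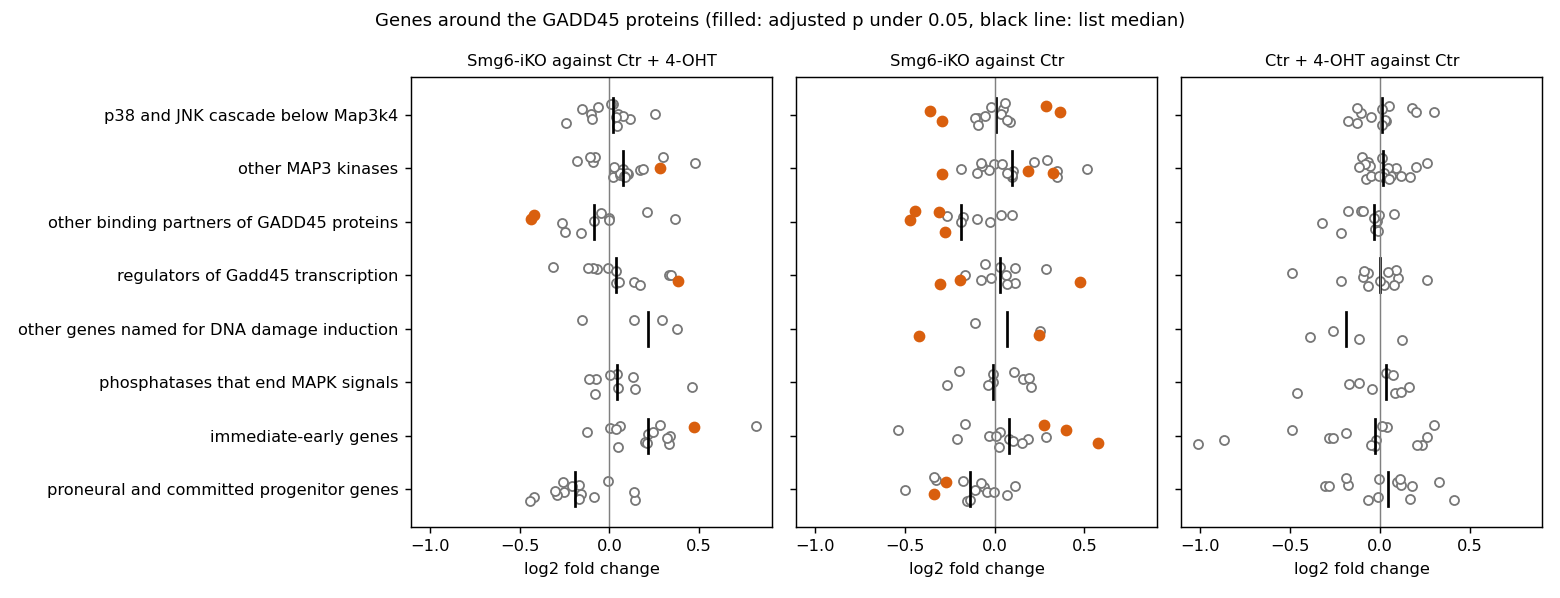
Log2 fold change (horizontal axis) of the genes of 8 lists (rows) in the 3 comparisons (panels), with filled points for an adjusted p under 0.05 and a black line for the list's median. Binding partners and proneural genes lie mostly below 0 in both panels of *Smg6*-iKO, and no gene is filled in the panel of the control groups.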

How the data were processed

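Total RNA, depleted of ribosomal RNA and sequenced as stranded single reads, was measured in 11 libraries. The authors mapped the reads with STAR 2.5.4b to GRCm38 and deposited raw counts per gene from featureCounts 1.5.0 (Ensembl annotation, uniquely mapped reads of 1 gene, by strand), with no normalization. Groups and embryo numbers came from the sample labels. The 4 members and all gene lists were chosen with earlier results of these data known.

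Counts were tested with edgeR 4.0.16 in R 4.3.3 (filterByExpr, TMM, quasi-likelihood test, Benjamini-Hochberg over all genes tested, threshold 0.05), each comparison on its own groups. Standard errors were derived from the fold change and its F value. CPM were scaled by TMM over all libraries, where 18123 genes were kept. Log2 CPM used a prior count of 2. A two-sided exact permutation test on log2 CPM was run for each member and comparison, 12 tests in all, with unadjusted p. Cultures came from separate embryos within a group. Ctr and *Smg6*-iKO libraries of 1 embryo number came from 1 animal, and deviations from the group means correlated at 0.328 to 0.425 over genes for the 3 same-embryo pairs and at -0.265 to 0.0948 for 9 other pairs. No libraries of 1 group were duplicates (chi-square per gene 11.04 to 43.02 over 15 pairs). Named genes were the members, *Smg6*, *Gas5*, up to 4 called genes of each list with the largest fold change per comparison, in a list without a call the 2 smallest p, and the 3 genes most correlated with each member. *Egr1*, *Egr2*, *Egr3*, *Ercc5*, *Dusp10*, *Dusp16* and the marker genes named as called were added after their values were seen. Symbols came from GENCODE M21, for 53620 of 53801 identifiers, and promoters from RefSeq. DESeq2 1.42.0 and other alternatives are given at the end. The scripts were tested on simulated counts. Per-base coverage of the floxed exons was not analysed here.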

Additional observations from a re-analysis of the deposited data

Results flagged for a closer look

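Within *Smg6*-iKO, the summed CPM of the neural progenitor markers in embryo SMH_128 (4892) stood above the other 3 libraries (4322 to 4377), with a gap of 0.903 of the group's range. The summed CPM of the oligodendrocyte lineage markers in embryo SMH_127 (656) stood below the others (788 to 810), with a gap of 0.856. Both exceed Dixon's 95% critical value for 4 libraries. These were 2 of 24 group values examined, where chance gives about 1 in 20. No member stood apart in any group of 4.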

How the results depend on the processing

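*Gadd45g* against Ctr + 4-OHT passed with DESeq2's or upper-quartile factors, either other filter, all libraries in 1 fit and the DESeq2 Wald test. Leaving out 1 library gave 0.4122 to 0.5238, called in 3 of 8 fits. Leaving out embryos SMH_125, SMH_127 and SMH_131, an alternative chosen after seeing the data, gave 0.3685, not called. *Map3k4* in that comparison ranged from -0.08451 to 0.0001243 with 1 library left out. *Gadd45a* against Ctr became called with upper-quartile factors (0.4071, adjusted p = 0.0479), the DESeq2 Wald test (0.3666, adjusted p = 0.0494) and the embryo block (0.338, adjusted p = 0.0292), and the block changed no other member's call. *Gadd45g* against Ctr ranged from 0.1099 to 0.2231 with 1 library left out. No other member's call changed with another normalization, filter, fit or tool. *Gadd45b* within embryo SMH_133 was 0.02588 on plain library totals, scaling added later.

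Genes called against Ctr + 4-OHT numbered 206, and 418 with no filter, 484 with all libraries in 1 fit, 873 by DESeq2, 99 without embryos SMH_125, SMH_127 and SMH_131 and 66 to 174 with 1 library left out. Against Ctr they numbered 1663, and 2714, 796 (all libraries), 3854 with the block and 570 to 2524. Between controls they numbered 39, and 198, 60, 169 by DESeq2 and 5 to 54. Taking each list in each fit with 1 library left out, the count called moved by over 1.5 times in 59 cases and did not in 117. Under the other settings 32 values outside the main results moved as far. The cause of these shifts was not tested. At 137 to 279 reads, the depth limits *Gadd45a* most.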
